A study of Rattus norvegicus with 6 samples.

Results

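The airway lining moves chloride, sodium and bicarbonate to set the depth and acidity of the liquid above it, and 10 genes of this transport machinery were followed in cultured rat tracheal cells. The 10 were Cftr, Ano1, Slc26a4, Slc12a2, Scnn1a, Scnn1b, Scnn1g, Car12, Car2 and Slc4a4, taken by gene symbol from the array's annotation out of 15037 genes tested. Each had 1 probe set, so no choice between probe sets was needed. The set was chosen by transport role with the measured EpiX and BEGM levels of these arrays already known, so the values are given as a description and nothing rests on their having been chosen.

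The cells came from tracheal scrapings of male WT Sprague Dawley rats, 12 weeks old, and 3 lines were made, each pooled from 3 rats. Each line was divided at isolation between EpiX and BEGM, a pair of epithelial culture media, and RNA was taken after 8 days. There were 3 EpiX arrays and 3 BEGM arrays, numbered 1 to 3 within each medium after the sample number in the labels. Pooling rats within a line leaves the spread between single animals unmeasured, and no array of uncultured tracheal lining was analysed here.

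In a resting airway, chloride enters the cell at its base through the cotransporter encoded by Slc12a2 and leaves at the surface through channels such as those encoded by Cftr and Ano1, while sodium is taken up at the surface through a channel built from the products of Scnn1a, Scnn1b and Scnn1g. Bicarbonate, which keeps the surface liquid from turning acid and lets mucus unfold, is made with the help of carbonic anhydrases, enters through cotransporters such as that of Slc4a4, and is secreted through CFTR or exchanged by pendrin, the product of Slc26a4. Basal cells are the stem cells of this lining, and most of the transport machinery is best known from the luminal cells they give rise to.

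The regions before the start of Car12 and Cftr are shown because these genes had the highest and the lowest difference between the media among the 10. Both hold the letters TGACATCA, a 1-base variant of the cAMP response element TGACGTCA that is known from the CFTR promoter. Sequences are from RefSeq, build GRCr8, 5′ to 3′ on the plus strand, with 250 bases before the annotated start and the 30 bases from it onward. Capitals mark TGACATCA and, in Car12, ACGTG, the core letters of a hypoxia response element.
Car12, chr8:76169565-76169844: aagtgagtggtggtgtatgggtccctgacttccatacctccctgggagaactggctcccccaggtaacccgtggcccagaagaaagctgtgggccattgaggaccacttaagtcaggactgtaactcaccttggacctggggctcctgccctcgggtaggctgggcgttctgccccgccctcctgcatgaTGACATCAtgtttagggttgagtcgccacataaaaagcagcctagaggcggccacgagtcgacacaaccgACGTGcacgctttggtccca
Cftr, chr4:47527379-47527658: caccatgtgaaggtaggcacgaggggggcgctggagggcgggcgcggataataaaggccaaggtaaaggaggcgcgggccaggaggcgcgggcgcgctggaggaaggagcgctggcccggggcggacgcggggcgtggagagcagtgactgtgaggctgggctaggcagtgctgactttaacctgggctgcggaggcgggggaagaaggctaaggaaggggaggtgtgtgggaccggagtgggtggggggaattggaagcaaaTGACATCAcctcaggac
In Car12 the letters TGACATCA began 60 bases before the start, and in Cftr they began at position 14 counted from the start.

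A promoter window of 300 bases was found for 8 of the 10 genes and searched on both strands. TGACATCA occurred in 2 of these 8 windows and in 4.26% of the 27457 RefSeq windows of the same length. ACGTG occurred only in that of Car12 among the 8, where it was present at positions 11 and 35 from the start, and in 19.7% of all windows. The AP-1 letters TGANTCA occurred only in that of Scnn1g, and in 7.33% of all windows. TGACGTCA occurred in 0 of the 8 and in 1.91% of all windows, and a steroid receptor element in 0 of the 8 and in 0.422% of all windows. The motifs and the window were chosen after the sequences and the differences between the media had been seen. When only the 250 bases before the start were searched, which was done first, TGACATCA occurred in 1 of the 8 windows, that of Car12, and in 3.76% of all, and ACGTG in 0 of the 8 and in 16.9% of all. A match of letters is a description of the sequence and not a measured binding site.

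Levels are the authors' deposited signals on a log2 scale, differences are EpiX minus BEGM, and folds assume base 2. A gene was called, and is said to have risen or fallen, where limma gave a Benjamini-Hochberg adjusted p under 0.05 over all 15037 genes. Over all genes, 5.78% were called, 2.63% higher and 3.15% lower in EpiX. The number of calls was 869 and became 170, 101 or 418 without EpiX array 1, 2 or 3, and 2089, 192 or 544 without BEGM array 1, 2 or 3. BEGM array 1 stood between the media: on the first principal component it scored -7.24, against 34.2 to 53.9 on the EpiX arrays and -54.8 and -73.2 on the other BEGM arrays.

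Among the 10 genes, 1 was higher in EpiX, Car12, and 0 were lower, with 9 that did not pass. By limma, 3 of the 10 (Car12, Slc12a2 and Cftr) had an unadjusted p under 0.05, as did 3377 of all 15037 genes. The 3 EpiX and 3 BEGM arrays did not overlap for these same 3 genes, where 28% of all genes had groups that did not overlap. The median difference over the 10 was 0.33, and that over all genes was 0.00218. With the sample number as a block, which compares cultures taken as the same line, Cftr was also called lower, and 8.33% of all genes were called. With the number as a random block, at an estimated correlation of 0.13, Cftr was not called (adjusted p = 0.072), Car12 was the only one of the 10 called, and 8.06% of all genes were called. Slc12a2 was also called higher without BEGM array 1, a setting that called 13.9% of all genes. Without both arrays of number 2, 0 of the 10 and 0 of all genes were called by limma (0% of all genes). There, 1 of the 10 had an unadjusted p under 0.05 by limma, as did 1582 of all 15037 genes.

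**Figure D1:**
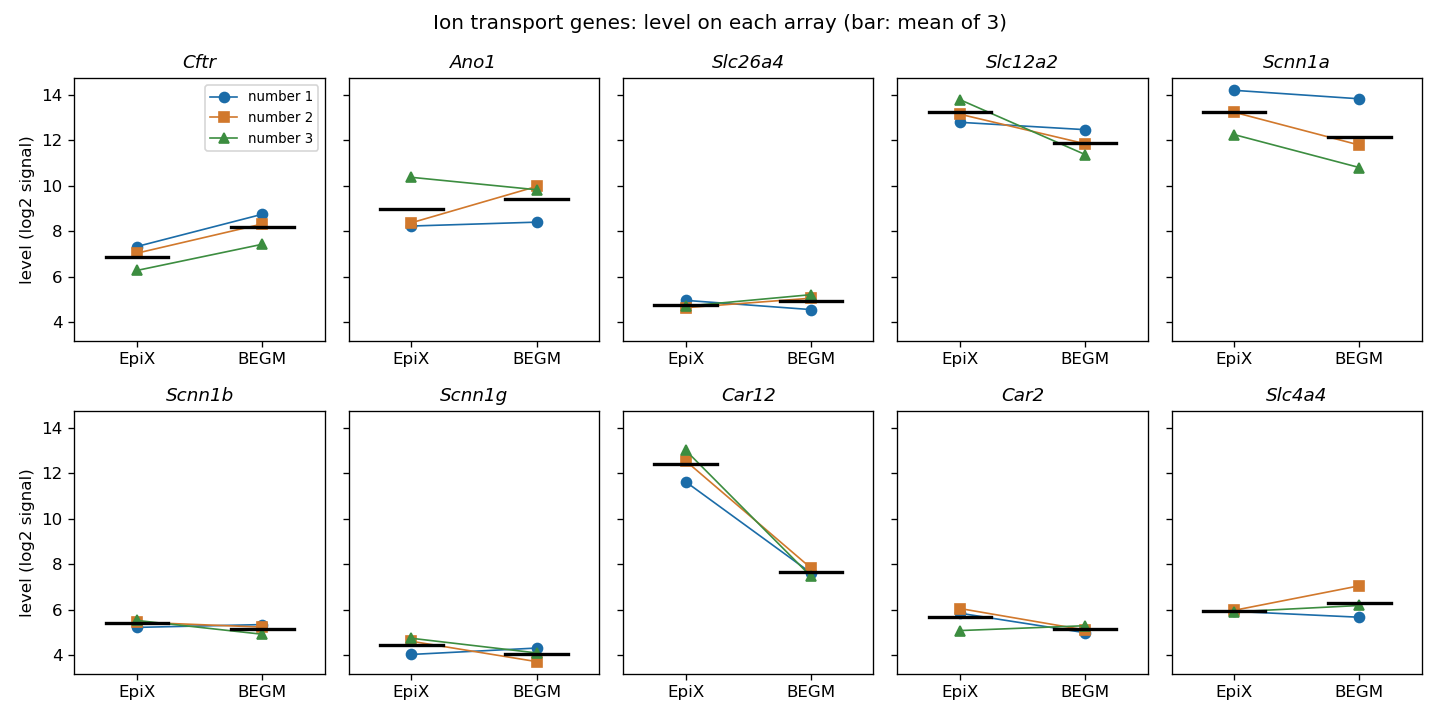
Level (log2 signal, vertical axis) of each of the 10 genes on the EpiX (left) and BEGM (right) arrays, with a point per array, a thin line joining arrays of the same number and a black bar for the mean of 3. Car12 lay between 11.63 and 13.01 on the EpiX arrays and between 7.48 and 7.84 on the BEGM arrays, and Scnn1b, Scnn1g and Slc26a4 stayed under 6 on every array.

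Car12 encodes a carbonic anhydrase anchored in the cell membrane with its active site outside the cell, and loss of the human gene leads to excess salt loss in sweat. It was at 11.63, 12.54 and 13.01 on the EpiX arrays 1, 2 and 3, against 7.63, 7.84 and 7.48 on the BEGM arrays 1, 2 and 3. The groups were far apart, with the lowest EpiX array 3.79 above the highest BEGM array. The mean was 12.39 ± 0.70 in EpiX and 7.65 ± 0.18 in BEGM (SD, n = 3 each). Car12 rose by 4.74 ± 0.34 (SE; 95% confidence interval 3.94 to 5.55; limma adjusted p = 0.00195), or 26.8-fold, and ranked 42 among all genes by the size of its difference. The difference was 4.0, 4.70 and 5.53 in the same-numbered pairs 1, 2 and 3. The call was kept without each single array, and was lost without both arrays of number 2 (difference 4.76, limma adjusted p = 0.17).

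Over the 6 arrays, the genes nearest to Car12 were the potassium channel gene Kcnj15, the chemokine Cxcl17 and the water and glycerol channel Aqp3. The search covered the genes tested, with predicted and unnamed loci passed over. Nearness was measured as the root mean square difference of levels after each gene's mean was taken off, and it was 0.31 for Kcnj15, 0.43 for Cxcl17 and 0.47 for Aqp3. Kcnj15 was at 11.58, 11.65 and 12.37 on the EpiX arrays, against 7.14, 6.85 and 6.68 on the BEGM arrays.

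The cytosolic carbonic anhydrase gene Car2 behaved differently. Its level was 5.85, 6.06 and 5.09 on the EpiX arrays, against 4.997, 5.12 and 5.30 on the BEGM arrays, so EpiX arrays 1 and 2 were above the BEGM arrays and EpiX array 3 lay among them. The difference of 0.53 ± 0.26 (SE; limma adjusted p = 0.296) did not pass, with an interval of -0.09 to 1.15. It had the opposite sign in pair 3 (-0.21) from pairs 1 (0.86) and 2 (0.94). Of the 1153 intron control probe sets, between 34.0% and 59.7% were brighter than Car2 on each array.

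Cftr encodes the cAMP-gated channel for chloride and bicarbonate whose loss causes cystic fibrosis. It was at 7.33, 7.04 and 6.28 on the EpiX arrays 1, 2 and 3, against 8.75, 8.32 and 7.43 on the BEGM arrays 1, 2 and 3. Every EpiX array was below every BEGM array, by a margin of 0.10 between EpiX array 1 and BEGM array 3. The mean was 6.89 ± 0.54 in EpiX and 8.17 ± 0.67 in BEGM (SD, n = 3 each). The difference of -1.28 ± 0.40 (SE; 95% confidence interval -2.22 to -0.34; limma adjusted p = 0.117) did not pass in the fit by medium alone.

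Within same-numbered pairs the Cftr difference was much alike, at -1.42, -1.28 and -1.15. With the sample number as a block, the standard error was 0.15, against 0.40 without it, and Cftr was called lower (limma adjusted p = 0.0125). With the number as a random block the standard error was 0.35 and this call was lost (limma adjusted p = 0.072 with an estimated correlation). In both media the number 1 array was highest and the number 3 array lowest, and the range within a medium (1.05 in EpiX and 1.32 in BEGM) was about as large as the difference between the media. By the same search as for Car12, the genes nearest to Cftr were Wfdc2 (root mean square difference 0.19), Tmem30b (0.21) and Hacd4 (0.21). Wfdc2 encodes a secreted whey acidic protein of airway and other epithelia. Wfdc2 was at 10.10, 9.94 and 9.14 on the EpiX arrays, against 11.11, 10.87 and 10.01 on the BEGM arrays, and its difference (-0.93 ± 0.36, SE; limma adjusted p = 0.186) did not pass.

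Cftr is carried in the airway largely by ionocytes, a rare cell type, and by secretory cells, so markers of both were read beside it. In bulk RNA, fewer cells of a type and less RNA per cell cannot be told apart. Of 8 measured ionocyte markers 0 were called by limma (1 higher, Tfcp2l1, with the sample number as a fixed or a random block), and Foxi1, the factor that specifies ionocytes, was at 4.35, 4.28 and 4.15 on the EpiX arrays, against 4.07, 4.59 and 3.85 on the BEGM arrays. On every array Foxi1 was thus dimmer than the median intron control probe set, which ran from 5.24 to 5.56 on the EpiX arrays and from 5.11 to 5.29 on the BEGM arrays. Ascl3, Stap1, Bsnd and Atp6v0d2 were also dimmer than it on every array, and Atp6v1b1 on every array but EpiX array 1. Of the ionocyte list, only Dmrt2 and Tfcp2l1 were brighter than it on every array. The mean over the ionocyte list was 5.72 to 5.96 on the EpiX arrays and 5.07 to 5.58 on the BEGM arrays. Most of that gap came from Tfcp2l1, which differed by 2.68. Without it, a choice made after its values were seen, the mean of the other 7 was 4.86 to 4.94 on the EpiX arrays and 4.60 to 4.91 on the BEGM arrays, which overlapped. Of 9 measured secretory markers 3 rose (Pigr, Cyp2f4 and Lypd2) and 0 fell, where 2.63% of all genes rose and 3.15% fell. The mean over the list was 7.35 to 8.93 on the EpiX arrays and 5.97 to 7.27 on the BEGM arrays. The 6 not called went both ways: higher in EpiX for Scgb3a1 (5.72), Bpifa1 (2.08) and Agr2 (0.99), lower for Scgb1a1 (-0.85), Scgb3a2 (-0.38) and Spdef (-0.19). Scgb3a1 had the largest difference of the list. With the sample number as a fixed block 4 of the 9 were called higher. Lypd2 was lost there (limma adjusted p = 0.0531), and Scgb3a1 and Bpifa1 were gained. With the random block Lypd2 was kept and Scgb3a1 alone was gained.

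Ano1 encodes a calcium-activated chloride channel. It was at 8.23, 8.37 and 10.37 on the EpiX arrays, against 8.40, 9.97 and 9.82 on the BEGM arrays. The groups overlapped fully, with EpiX array 3 the highest of the 6 and EpiX array 1 the lowest. The difference of -0.41 ± 0.66 (SE; limma adjusted p = 0.777) did not pass, and its interval of -1.96 to 1.15 was wide. The differences in pairs 1, 2 and 3 were -0.17, -1.59 and 0.55, and without both arrays of number 2 the mean difference was 0.19.

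Slc26a4, the gene of pendrin, an exchanger of chloride for bicarbonate and iodide, was dim in both media. Its level was 4.97, 4.65 and 4.71 on the EpiX arrays, against 4.56, 5.06 and 5.22 on the BEGM arrays, and the groups overlapped. The difference was -0.17 ± 0.21 (SE; limma adjusted p = 0.691), with an interval of -0.66 to 0.32. On each array between 52.4% and 69.3% of the 1153 intron control probe sets were brighter than Slc26a4. Probe sets respond unequally to the same amount of RNA, so these shares are no detection call.

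Slc12a2 encodes the sodium, potassium and chloride cotransporter NKCC1 at the cell base, which loads the cell with chloride for secretion. It was at 12.78, 13.14 and 13.78 on the EpiX arrays 1, 2 and 3, against 12.46, 11.84 and 11.37 on the BEGM arrays 1, 2 and 3. Every EpiX array was above every BEGM array, and EpiX array 1 and BEGM array 1 came closest, 0.32 apart. The mean was 13.23 ± 0.50 in EpiX and 11.89 ± 0.55 in BEGM (SD, n = 3 each). The difference of 1.34 ± 0.35 (SE; 95% confidence interval 0.52 to 2.16; limma adjusted p = 0.075), or 2.54-fold, did not pass.

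The Slc12a2 difference was unequal between pairs, at 0.32, 1.30 and 2.41 for numbers 1, 2 and 3. Without BEGM array 1 it was 1.63 and passed (limma adjusted p = 0.0178), and leaving out the arrays of number 1 altogether gave 1.85 (limma adjusted p = 0.019). With the sample number as a block it did not pass (limma adjusted p = 0.102). Its nearest gene among the other 9 and the further transport genes was Slc4a7, which encodes an electroneutral sodium bicarbonate cotransporter (root mean square difference 0.42).

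The epithelial sodium channel, ENaC, has 3 subunits, whose genes had unlike patterns in these cultures. Scnn1a, the gene of the alpha subunit, lay above nearly all intron control probe sets and varied widely. Scnn1b and Scnn1g, the genes of the beta and gamma subunits, lay among the intron controls on every array. Scnn1b and Scnn1g are neighbours in the RefSeq annotation, with 0 protein-coding genes lying wholly between them, and Scnn1a is on another chromosome.

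Scnn1a was at 14.19, 13.23 and 12.24 on the EpiX arrays 1, 2 and 3, against 13.82, 11.78 and 10.80 on the BEGM arrays 1, 2 and 3. The groups overlapped, and BEGM array 1 was above EpiX arrays 2 and 3. In both media the number 1 array was highest and the number 3 array lowest, so that the range within a medium was 1.94 in EpiX and 3.02 in BEGM. The difference between the media, 1.09 ± 0.80 (SE; 95% confidence interval -0.82 to 2.99; limma adjusted p = 0.491), was smaller than either range. Every same-numbered pair was higher in EpiX, by 0.37, 1.44 and 1.45, and with the sample number as a block the standard error was 0.26, against 0.80 without it (limma adjusted p = 0.0656, not called).

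The gene nearest to Scnn1a among the other 9 and the further transport genes was Prss8, with a root mean square difference of 0.31 over the 6 arrays. Prss8 encodes prostasin, a membrane-anchored serine protease that activates ENaC. It was at 13.86, 13.16 and 12.19 on the EpiX arrays, against 13.50, 12.18 and 11.25 on the BEGM arrays. The arrays thus had the same order within each medium for both genes, and the Prss8 difference (0.76 ± 0.63, SE; limma adjusted p = 0.541) did not pass either. This order was not particular to them: Cftr and the carbonic anhydrase genes Car13 and Car5b, among others, had it too.

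Scnn1b was at 5.23, 5.46 and 5.54 on the EpiX arrays, against 5.35, 5.24 and 4.93 on the BEGM arrays, and the groups overlapped. Its difference was 0.23 ± 0.17 (SE; limma adjusted p = 0.485), with an interval of -0.17 to 0.63. Scnn1g was at 4.04, 4.62 and 4.75 on the EpiX arrays, against 4.32, 3.73 and 4.11 on the BEGM arrays, and these groups also overlapped. Its difference was 0.42 ± 0.24 (SE; limma adjusted p = 0.376), with an interval of -0.16 to 1.00. Between 44.1% and 60.2% of the intron control probe sets were brighter than Scnn1b on each array, and between 67.8% and 88.8% were brighter than Scnn1g. By contrast, between 0.694% and 2.6% were brighter than Scnn1a.

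Slc4a4 encodes NBCe1, an electrogenic sodium bicarbonate cotransporter. It was at 5.93, 5.98 and 5.91 on the EpiX arrays, which were nearly equal (SD 0.03), against 5.68, 7.06 and 6.19 on the BEGM arrays, of which BEGM array 2 was highest. The EpiX arrays lay within the BEGM range. The difference of -0.37 ± 0.33 (SE; limma adjusted p = 0.578) did not pass, had an interval of -1.14 to 0.41, and was 0.0084 without BEGM array 2. Between 17.8% and 42.5% of the intron control probe sets were brighter than Slc4a4 on each array.

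**Figure D2:**
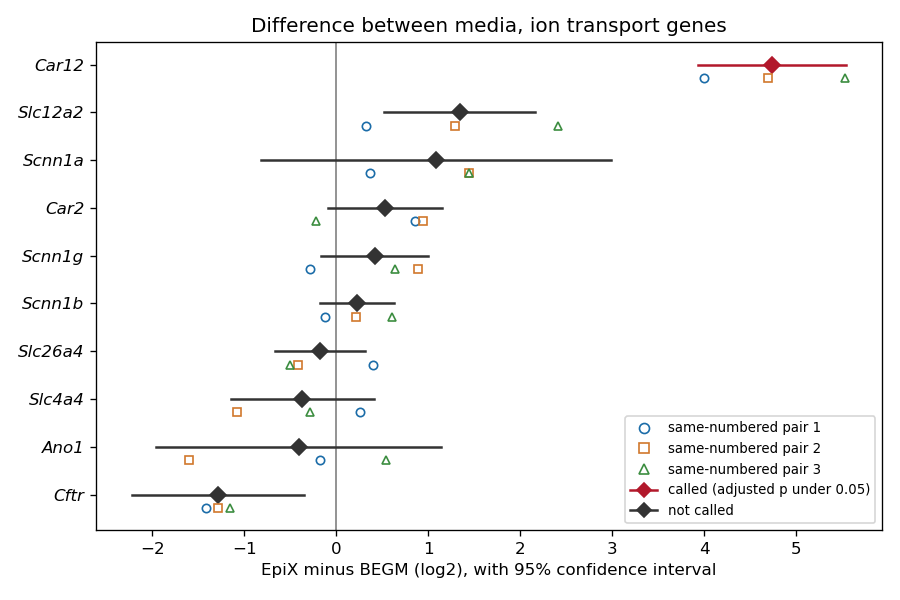
Difference between EpiX and BEGM (log2, horizontal axis) for each of the 10 genes, with diamonds and lines for the estimate and its 95% confidence interval from limma over 6 arrays, red where called, and open symbols below for the 3 same-numbered pairs. Car12 lies apart at 4.74, Slc12a2 and Cftr have intervals that leave out 0 without passing the adjusted threshold, and the pairs of Cftr lie close together between -1.42 and -1.15.

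Further genes of chloride, sodium and bicarbonate transport and its control were taken from a list of 115, of which 98 were measured. Of these, 8 rose, 4 fell and 86 did not pass, which is 12 of 98 where 5.78% of all genes were called. The list's median difference was -0.02, close to the 0.00218 of all genes. The groups of arrays did not overlap for 17 genes higher in EpiX and 14 lower, against 13.5% and 14.5% of all genes. The count of calls rested on few arrays. Leaving out EpiX array 1 gave 3 calls (1.13% of all genes called), leaving out EpiX array 2 gave 2 (0.672%) and leaving out BEGM array 2 gave 3 (1.28%). Leaving out BEGM array 1 gave 24 (13.9%). Both arrays of a number were also left out. The count was then 20 for number 1 (8.98%), 4 for number 3 (1.76%) and 0 by limma for number 2. Without number 2, 17 of the 98 had an unadjusted p under 0.05 by limma, against 1582 of all 15037 genes. Of the 12 calls, those of Fxyd5 and Slc4a7 were kept without each single array. Leaving out EpiX array 1 ended 9 of the 12, all but those of Adora2b, Fxyd5 and Slc4a7, and leaving out EpiX array 2 or BEGM array 2 ended 10, all but those of Fxyd5 and Slc4a7. Leaving out EpiX array 3 ended 4 (Clca2, Clic4, Furin and Nr3c1), leaving out BEGM array 3 ended 2 (Clca2 and Slc9a3), and leaving out BEGM array 1 ended 0 while bringing in others.

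Among 33 genes for chloride and other anions, 1 rose and 1 fell, where 2.63% of all genes rose and 3.15% fell. Clca2, a basal cell gene of the family of calcium-activated chloride channel regulators, was at 15.94, 15.66 and 15.34 on the EpiX arrays, against 14.03, 12.15 and 12.13 on the BEGM arrays. It rose by 2.87 ± 0.51 (SE; limma adjusted p = 0.0254). Clic4, whose product belongs to the chloride intracellular channel family and also acts in the actin cytoskeleton, was at 13.37, 13.54 and 13.34 on the EpiX arrays, against 14.58, 15.23 and 15.54 on the BEGM arrays. It fell by 1.70 ± 0.25 (SE; limma adjusted p = 0.0151). Its relative Clic5 had the largest difference of the group that did not pass (1.92 ± 0.44, SE; limma adjusted p = 0.0551). With the number as a random block Clic5 was called higher (limma adjusted p = 0.0416 with an estimated correlation). With a fixed block it was not (limma adjusted p = 0.0625).

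Among 12 genes of sodium transport and sodium-proton exchange, 3 rose and 1 fell (2.63% and 3.15% of all genes). Fxyd5, whose product dysadherin modulates the sodium pump and weakens cell adhesion, was at 5.63, 6.96 and 7.53 on the EpiX arrays, against 11.97, 13.61 and 13.66 on the BEGM arrays. The groups were 4.44 apart at their closest, and Fxyd5 fell by 6.37 ± 0.61 (SE; limma adjusted p = 0.00463). The genes that rose were Atp1b3, a beta subunit of the sodium pump (1.03 ± 0.14, SE), the exchanger gene Slc9a3 (1.78 ± 0.37) and the glucose cotransporter gene Slc5a1 (1.19 ± 0.18). Slc5a1 was dim, at 4.24 to 4.75 on the EpiX arrays and 3.17 to 3.52 on the BEGM arrays. Slc9a3 was at 5.38, 6.41 and 4.89 on the EpiX arrays, against 3.57, 3.91 and 3.88 on the BEGM arrays. On EpiX array 3 and on every BEGM array Slc9a3 was dimmer than the median intron control probe set. Another beta subunit gene of the pump, Atp1b1, did not pass in the fit by medium alone (1.52 ± 0.52, SE; limma adjusted p = 0.144) and was called higher with the sample number as a fixed block (adjusted p = 0.0223) but not as a random block (adjusted p = 0.0957 with an estimated correlation).

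Among 22 further genes of bicarbonate transport, carbonic anhydrases and proton pumping, 1 rose and 0 fell (2.63% and 3.15% of all genes). Slc4a7 was at 12.28, 12.46 and 12.50 on the EpiX arrays, against 10.80, 10.94 and 10.84 on the BEGM arrays. It rose by 1.56 ± 0.14 (SE; limma adjusted p = 0.00331), with little spread within either medium. The cytosolic carbonic anhydrase gene Car13 was at 13.99, 13.70 and 12.57 on the EpiX arrays, against 12.11, 10.83 and 9.96 on the BEGM arrays. Its difference of 2.46 ± 0.59 (SE; limma adjusted p = 0.061) did not pass by medium alone, and it rose with the sample number as a fixed block (adjusted p = 0.00754) and as a random block (adjusted p = 0.0355 with an estimated correlation).

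Among 31 regulators, 3 rose and 2 fell (2.63% and 3.15% of all genes). Tmprss4, the gene of a membrane serine protease that can activate ENaC, was at 9.74, 10.07 and 9.36 on the EpiX arrays, against 7.43, 6.04 and 5.54 on the BEGM arrays. It rose by 3.39 ± 0.47 (SE; limma adjusted p = 0.0125). Furin, the gene of the convertase that cleaves the alpha and gamma subunits of ENaC, was at 11.48, 11.22 and 10.98 on the EpiX arrays, against 12.46, 13.51 and 13.35 on the BEGM arrays. It fell by 1.89 ± 0.30 (SE; limma adjusted p = 0.0181).

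Sgk1, the gene of a steroid-induced kinase that keeps ENaC at the cell surface, was at 13.23, 13.38 and 14.06 on the EpiX arrays, against 14.98, 15.14 and 15.89 on the BEGM arrays. It fell by 1.78 ± 0.31 (SE; limma adjusted p = 0.024), while Nr3c1, the gene of the glucocorticoid receptor, rose by 1.15 ± 0.21 (SE; limma adjusted p = 0.0285). Adora2b, whose product is an adenosine receptor that raises cAMP and so opens CFTR, rose by 1.18 ± 0.16 (SE; limma adjusted p = 0.0115), with levels of 6.67, 7.01 and 6.82 on the EpiX arrays, against 5.54, 5.59 and 5.82 on the BEGM arrays. Bpifa1, the gene of a secreted protein that restrains ENaC, had the largest difference of the regulators that did not pass (2.08 ± 0.96, SE; limma adjusted p = 0.259), and was called higher with the sample number as a fixed block (adjusted p = 0.0497) but not as a random block (adjusted p = 0.189 with an estimated correlation).

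**Figure D3:**
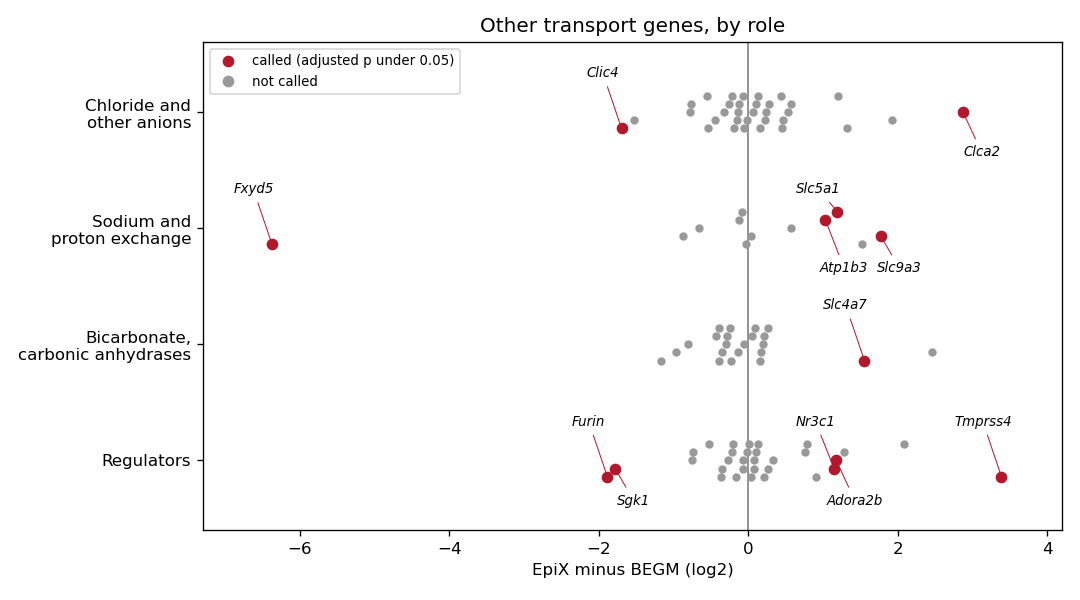
Difference between EpiX and BEGM (log2, horizontal axis) for 98 further transport genes in 4 role groups, with a point per gene, red and named where limma called it. Most points lie near 0, and Fxyd5, at -6.37, lies far from the others.

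Markers of other cells also differed between the media, and their part in the results above was not tested. Beside the counts below, 2.63% of all genes rose and 3.15% fell in the fit by medium alone. Of 6 measured basal markers 4 rose and 0 fell, with a mean level of 12.14 to 12.35 on the EpiX arrays and 10.03 to 10.46 on the BEGM arrays. Of 7 fibroblast markers 0 were called by limma, and their mean level was 5.27 to 5.58 on the EpiX arrays and 6.22, 7.17 and 9.81 on the BEGM arrays 1, 2 and 3. With the sample number as a fixed block 2 of the 7 were called lower, Col1a2 (limma adjusted p = 0.0405) and Lum (limma adjusted p = 0.0441), and with the random block Col1a2 alone (limma adjusted p = 0.049). BEGM array 3, the highest for fibroblast markers, was the lowest of all 6 for Scnn1a, Scnn1b, Slc12a2 and Car12. For Car12 the BEGM arrays ran only from 7.48 to 7.84. The same array was the highest of all 6 for Slc26a4 (5.22), and neither highest nor lowest for Cftr, Ano1, Scnn1g, Car2 and Slc4a4. The 5 ciliated cell markers had mean levels of 4.44 to 4.54 on the EpiX arrays and 4.25 to 4.48 on the BEGM arrays, with 0 called. Of 5 markers of smooth muscle and cartilage 1 fell, Cnn1, of 5 leukocyte markers 1 fell, Cd74, and of 4 endothelial markers 0 were called. Cd74 passed in the fit by medium alone (limma adjusted p = 0.041) and with the random block (0.0301), but not with the fixed block (0.0526). The 3 erythrocyte markers, which bear on Car2 because red cells are rich in its product, had 0 called, with mean levels of 4.74 to 4.98 on the EpiX arrays and 4.72 to 4.85 on the BEGM arrays.

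**Figure D4:**
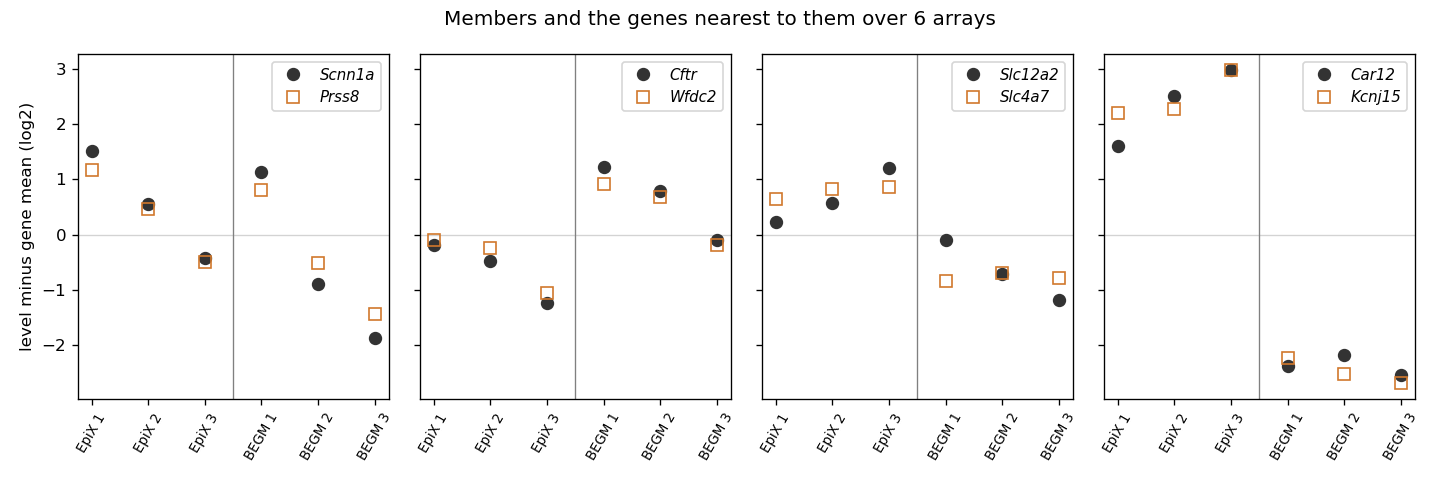
Level minus the gene's own mean over the 6 arrays (log2, vertical axis) for Scnn1a, Cftr, Slc12a2 and Car12 (filled circles) and a gene near each of them (open squares), on the EpiX arrays left of the grey line and the BEGM arrays right of it. Scnn1a and Prss8, like Cftr and Wfdc2, share a high number 1 array and a low number 3 array in both media, whereas Car12 and Kcnj15 separate the media by over 3 units on every array.

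For the other members the nearest gene among the 10 and the further transport genes was at 0.09 to 0.53. These were Tsc22d3 for Car2 (root mean square difference 0.26), P2ry6 for Scnn1b (0.11), Car9 for Scnn1g (0.20), Clcn7 for Slc26a4 (0.09), Slc12a7 for Slc4a4 (0.15) and Slc26a9 for Ano1 (0.53). Genes that vary little over the arrays lie close to each other by this measure, which applies to Scnn1b and Slc26a4. Car12 had Tmprss4 as its nearest gene of the list, at a larger distance of 1.02, and Cftr had Tmprss2, the gene of another membrane serine protease, at 0.50.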

How the data were processed

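RNA of 6 cultures was measured on Affymetrix arrays, 1 array a culture, per the labels' protocols. The authors' deposited log2 values cover 24834 probe sets, each with 1 signal an array. Of software, only the Transcriptome Analysis Console appears in the submitters' processing notes, with no role or version, and how the values were normalized is not given in the sources used here. They ran from 2.62 to 18.7, from which the unit was taken as log2; scale and centring stay unknown. The array medians over genes were 6.93, 6.93 and 6.90 on the EpiX arrays and 6.98, 7.02 and 7.13 on the BEGM arrays. No detection calls were used, and the number of arrays limits the precision.

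Genes were named through the platform annotation (15049 probe sets with 1 symbol, 0 with several); the brightest probe set per gene left 15037 genes. limma 3.58.1 (lmFit, eBayes; statmod 1.5.0, R 4.3.3) was fitted to all genes with medium as the only term; tests are 2-sided. The fit was tested on simulated data with known changes. Plots used matplotlib 3.10.9 in Python 3.11.15. Named genes were the 10 members, up to 8 called further transport genes per direction, the largest uncalled difference of each role group, and the nearest genes. Members and lists were chosen with earlier results of these data known.

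Each line was divided between the media, and arrays with the same sample number were taken as the same line, which the labels do not state outright. Titles pair the arrays numbered 1 and 2 here by number, but give number 3 to those numbered 2 here. The titles of the arrays numbered 3 here are of another form and hold no line number, so they do not pair these arrays by number. After the mean of each medium was taken off, the EpiX and BEGM arrays of numbers 1, 2 and 3 correlated over genes at 0.32, -0.01 and 0.32. Between unlike numbers the correlations ran from -0.37 to 0.16. EpiX array 2 correlated more with BEGM array 1 (0.16) than with BEGM array 2. BEGM array 2 correlated most with EpiX array 3 (0.12), so for number 2 these values did not favour the pairing used.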

Additional observations from a re-analysis of the deposited data

How the results depend on the processing

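Alternatives were a block for the sample number (replicate block), a random block, quantile normalization, median centring, leaving out the dimmest 25% of genes (which removed Scnn1g and Slc5a1, so that the call of Slc5a1 has no value there), a trended, robust variance, weights for arrays, averaging of probe sets, and leaving out each array or both arrays of a number. With the replicate block, 2 of the 10 genes were called, Car12 and Cftr, against 1 without it, and 16 of the further transport genes, against 12. With the random block, 1 of the 10 (Car12) and 15 of the further transport genes were called, without Atp1b1 and Bpifa1, which the replicate block had added, and with Clic5. The difference in the mean of the ionocyte markers was 0.44, and 0.12 without Tfcp2l1, an alternative chosen after seeing the data. With array weights, 2 of the 10 (Car12 and Slc12a2), 20 of the further transport genes and 1987 of all genes were called. Leaving out arrays gave 0 to 2 calls among the 10, 0 to 24 among the further transport genes and 0 to 2089 among all genes. The count of 0 was by limma without both arrays of number 2, where 1582 genes had an unadjusted p under 0.05. Fewer samples also leave less power, and the cause of these shifts was not tested. The replicate block changed no other call among the 10 genes. The sign of 2 uncalled differences turned when arrays were left out, with a range of -1.10 to 0.19 for Ano1 and -0.68 to 0.0084 for Slc4a4. Median centring moved the median of all differences to 0.13 and the calls over all genes to 560 higher and 409 lower, against 395 higher and 474 lower without it, and turned the sign of none of the 10. The Car12 difference was 4.74 to 4.87 under the alternatives that kept all arrays (limma adjusted p = 0.000461 to 0.00262) and 4.35 to 5.13 without single arrays or numbers.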
